A study of Homo sapiens with 8 samples.

Results

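The genes of the WNT signaling surface, meaning the WNT ligands, their Frizzled and LRP receptors, the R-spondins with their LGR receptors, the secreted antagonists and 3 feedback genes, were followed in human intestinal epithelial cells (hIECs) exposed to inflammatory cytokines and to airborne particulate matter (PM10). Members were taken by gene symbol, with no measured value in the rule, as the protein-coding WNT, FZD, RSPO, DKK and SFRP family genes together with LGR4, LGR5, LGR6, LRP5, LRP6, AXIN2, RNF43, ZNRF3, WIF1 and FRZB. This rule gave 51 of the 60558 genes in the files, namely 19 WNT ligands, 10 Frizzled receptors, 2 LRP co-receptors, 4 R-spondins, 3 LGR receptors, 6 antagonists that bind the ligands (SFRP1, SFRP2, SFRP4, SFRP5, FRZB and WIF1), 4 Dickkopf proteins and 3 feedback genes.

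WNT proteins are secreted, lipid-modified ligands that bind a Frizzled receptor and, in the branch that stabilizes β-catenin, the co-receptors LRP5 and LRP6. R-spondins bind LGR receptors and protect Frizzled from removal by the ubiquitin ligases RNF43 and ZNRF3, while SFRP proteins, FRZB and WIF1 capture the ligands and DKK1 occupies the LRP co-receptors. In the intestine this pathway is known for keeping crypt stem cells, which carry LGR5, and much of the ligand and R-spondin supply comes from the mesenchyme around the crypts.

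H9, a long-established line of human embryonic stem cells, gave rise to the hIECs, so all libraries share 1 genetic background. Before the treatments all cells had passed through activin A, FGF4 with CHIR99021 (an inhibitor of GSK3 that switches on WNT signaling) and a medium with R-spondin1 and EGF. On Transwell inserts the cells were first kept in this last medium, with a further compound added, until nearly confluent. All groups, controls included, then received a medium with EGF, valproic acid and Wnt-C59, which blocks the release of WNT ligands by inhibiting the enzyme PORCN. Poly-A RNA was sequenced in 8 libraries, 2 per group. Normal hIECs received no cytokine and no PM10, and normal hIECs given PM10 received 100 μg/ml PM10 for the last 7 days. Inflamed hIECs were kept for 10 days with IFNγ and TNFα, each at 50 ng/ml, and inflamed hIECs given PM10 received both cytokines and PM10 in the same way. For every group, PM10 or not, the records name 10 days. No source used here says that the libraries of a group came from separate cultures, so p-values measure only the spread between these libraries, which may be technical.

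Levels are FPKM, fragments scaled to gene length and to the size of the library, so that genes can be set side by side. Read counts and depth are not given by the files. The lowest value above 0 of any gene lay between 0.164 and 0.228 FPKM in the 8 libraries. The level below which a given gene is listed at 0 is not known, and a 0 is not proof of absence. The labels held in their marker genes, since CXCL10, a chemokine induced by IFNγ, was at 1.15 to 1.74 FPKM in the 4 libraries without cytokines and at 1254 to 1314 in the 4 with cytokines. CYP1B1, a target of the aryl hydrocarbon receptor, was at 5.95 to 6.91 FPKM in normal hIECs, 62.8 to 65.7 after PM10, 35.7 to 37.6 in inflamed hIECs and 254.1 to 254.3 in hIECs given both. It thus rose with cytokines alone as well and is not particular to PM10. Of the other PM10 marker genes checked, TIPARP was higher with PM10 in both states, while CYP1A1 and AHRR were too low to be tested. Of 18 intestinal epithelial markers, 10 (CDX2, VIL1, MUC2, LYZ, CHGA, KRT20, ALPI, SI, FABP2 and APOA4) were at 0 in all libraries, CDH1 was at 0 in 7 of 8 libraries and EPCAM was at or below 0.622 FPKM, so defining markers of intestinal epithelium were absent or low in cells labelled as hIECs. The summed level was carried by KRT8 and KRT18. It was 644 to 653 FPKM in normal hIECs, 600.3 to 638 after PM10, 352 to 358 in inflamed hIECs and 295 to 313 in hIECs given both. Of 14 mesenchymal markers, 13 were above 0 in every library and FOXF1 was at 0 in the 4 libraries with cytokines and at most at 0.287 FPKM in the others. Their sums were 3750.3 to 4492 FPKM over the 8 libraries, and VIM alone reached 718 to 973. Neuronal markers (3 of 7 at 0) summed to 196 to 223 FPKM without cytokines and 116 to 132 with them. The part of these shifts in the results that follow was not tested.

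Of the 51 members, 13 were at 0 in all 8 libraries, which were 10 WNT ligands (WNT1, WNT2, WNT3A, WNT7A, WNT7B, WNT8A, WNT8B, WNT9A, WNT9B and WNT16), FZD10, RSPO1 and SFRP5. A further 9 were above 0 but below 1 FPKM in at least 7 libraries, and 29 reached 1 FPKM in at least 2 libraries and were tested. LGR6 passed only through inflamed hIECs given PM10 and SFRP4 only through libraries with cytokines, while AXIN2, RSPO2, WNT2B, WNT4 and WNT11 passed only through libraries without them, so the differences of these genes between such libraries are in part fixed by the filter. Differences are given as log2 fold changes of log2(FPKM + 1) with standard errors, a scale that understates changes of genes near 1 FPKM. A member was called at an adjusted p-value under 0.05 in limma, fitted to 14206 genes. With 2 libraries against 2, the smallest two-sided p-value of an exact permutation test is 0.333, so no such test was run.

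Cytokines moved most of the tested members, and PM10 moved fewer. In inflamed against normal hIECs, 23 of 29 members were called, 9 higher and 14 lower, where 56.2% of all tested genes were called, 25.9% higher and 30.3% lower. With PM10 present in both groups, cytokines gave 24 called members, 8 higher and 16 lower, against 65.4% of all genes, 25.8% higher and 39.6% lower. PM10 gave 8 called members in normal hIECs, 3 higher and 5 lower, against 9.23% of all genes, 5.51% higher and 3.72% lower. In inflamed hIECs PM10 also gave 8, 4 higher and 4 lower, against 15.2%, 6.22% higher and 9.02% lower. The interaction, the difference between the effect of PM10 in inflamed and in normal hIECs, was called for 8 members, 5 higher and 3 lower, against 6.6%, 2.11% higher and 4.48% lower. Over the 29 members the median size of the change was 0.44 without PM10 and 0.64 with PM10 for the cytokine comparisons, where all genes had 0.30 and 0.38. For PM10 it was 0.18 in normal and 0.17 in inflamed hIECs, where all genes had 0.14 and 0.14. Members called and changed by at least 1 on the log2 scale numbered 8 and 12 in the cytokine comparisons without and with PM10, beside 9.18% and 12.9% of all genes. These counts include RSPO2, WNT2B, WNT4 and WNT11, and with PM10 also LGR6, whose differences with cytokines are in part fixed by the filter. The cytokine calls above also include AXIN2, and with PM10 SFRP4, to which the same limit applies. All of these members enter the median sizes.

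For all genes the split of PM10 calls depended on scaling. In normal hIECs 59.7% of calls were higher, against 42.9% under median centring, 49.8% under quantile normalization and 74.9% without mitochondrial genes. In inflamed hIECs the share was 40.8%, and 50.8% under quantile normalization, while for the interaction it was 32.0%, and 45.7% and 46.6% under the 2 scalings. The members split 3 higher and 5 lower with PM10 in normal hIECs, 3 and 5 under median centring, 4 and 5 under quantile normalization and 5 and 5 without mitochondrial genes. With cytokines where PM10 was present, the share over all genes was 39.4%, against 44.8%, 48.1% and 41.7% in that order. The members there split 8 and 16, against 9 and 15, 11 and 15, and 9 and 16. With cytokines without PM10 the share was 46.1%, against 47.1%, 49.5% and 50.2%. The members there split 9 and 14, against 10 and 14, 11 and 14, and 11 and 14. None of the 29 members was called in the opposite direction under any of these scalings.

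The DNA just before a transcript start of 4 members is shown, chosen after their values were seen: the inhibitor with the highest level (SFRP2), a ligand that fell to 0 (WNT4), a ligand that rose (WNT5A) and an LRP inhibitor that fell (DKK1). Each is the 250 bases before a RefSeq transcript start (GRCh38.p14), written along the gene's strand. SFRP2 is at chr4:153789084-153789333 on the minus strand, WNT4 at chr1:22143098-22143347 on the minus strand, WNT5A at chr3:55481399-55481648 on the minus strand (1 of its 2 RefSeq windows), and DKK1 at chr10:52314031-52314280 on the plus strand, where it lies over an exon of PRKG1-AS1 on the opposite strand. The WNT4 and WNT5A windows lie inside the annotated spans of these genes, which are given below. Capitals mark matches to the searched motifs.
SFRP2: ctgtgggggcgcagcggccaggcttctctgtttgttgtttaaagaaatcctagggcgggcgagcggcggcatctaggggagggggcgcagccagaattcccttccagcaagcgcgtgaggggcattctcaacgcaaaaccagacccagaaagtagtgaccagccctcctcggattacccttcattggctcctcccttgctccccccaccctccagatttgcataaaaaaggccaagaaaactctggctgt
WNT4: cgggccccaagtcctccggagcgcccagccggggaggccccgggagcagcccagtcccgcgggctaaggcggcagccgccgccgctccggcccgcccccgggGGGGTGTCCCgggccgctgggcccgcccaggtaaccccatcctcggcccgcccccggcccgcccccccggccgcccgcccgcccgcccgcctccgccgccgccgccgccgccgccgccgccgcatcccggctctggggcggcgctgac
WNT5A: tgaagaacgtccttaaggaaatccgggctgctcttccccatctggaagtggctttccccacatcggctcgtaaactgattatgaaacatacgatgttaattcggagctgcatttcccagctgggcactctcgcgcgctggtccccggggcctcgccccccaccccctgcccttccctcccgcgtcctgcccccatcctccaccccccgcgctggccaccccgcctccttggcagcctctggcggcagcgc
DKK1: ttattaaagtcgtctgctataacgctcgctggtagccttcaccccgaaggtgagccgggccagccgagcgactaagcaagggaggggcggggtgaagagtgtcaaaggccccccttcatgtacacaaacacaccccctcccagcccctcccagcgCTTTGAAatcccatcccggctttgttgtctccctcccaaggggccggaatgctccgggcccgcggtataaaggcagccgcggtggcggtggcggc

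Both strands were searched for STAT sites (TTCNNNGAA, the class used by IFNγ signaling), TCF/LEF sites (CTTTGAA or CTTTGAT, the class used by β-catenin), aryl hydrocarbon receptor sites (TNGCGTG) and the NF-kB consensus, the class used by TNFα signaling. Of the 29 tested members, 16 had a window. Among these 16, DKK1 held a TCF/LEF match that starts 95 bases before the transcript start, WNT4 held an NF-kB match that starts 148 bases before it, and no window held a STAT or an aryl hydrocarbon receptor match. Over all 35116 promoters of this length, 5.94% held a TCF/LEF match, 5.21% an NF-kB match, 6.57% a STAT match and 4.52% an aryl hydrocarbon receptor match. The WNT4 window was 86.8% G and C with 40 CpG, against 57.6% and 11 for SFRP2, 64.4% and 18 for WNT5A and 62.8% and 18 for DKK1, beside medians of 58.0% and 11 over all promoters. A match is a description of letters and not of binding.

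The set of WNT ligands changed its make-up with cytokines. WNT4 (chr1:22117313-22143969), a ligand linked to β-catenin-independent signaling and urogenital development, was at 7.11 and 6.35 FPKM in the normal libraries, at 5.84 and 5.27 with PM10, and at 0 in all 4 libraries with cytokines. It was called lower in inflamed hIECs without PM10 (limma adjusted p = 3.44e-07) and with PM10 (limma adjusted p = 3.68e-07), and no fold is given because the inflamed groups were listed at 0. WNT4 passed the filter only through libraries without cytokines, so these p-values are in part fixed by the filter. In these bulk libraries, fewer cells that express a gene and less RNA per cell cannot be told apart. An antisense gene without a symbol shares exon positions with WNT4, and the libraries carry no strand.

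WNT11, another ligand of the β-catenin-independent branch, was at 6.70 and 5.52 FPKM in normal hIECs, 4.69 and 5.52 after PM10, 0.410 and 0.262 in inflamed hIECs, and 0.244 and 0 in inflamed hIECs given PM10. All libraries with cytokines lay below all libraries without them, by -2.41 ± 0.14 (log2 fold change ± SE, limma adjusted p = 9.60e-06) without PM10 and by -2.45 ± 0.14 with PM10. WNT2B, a ligand of gut mesenchyme that acts through β-catenin, was at 3.44 and 3.03 FPKM in normal hIECs, 2.19 and 2.31 after PM10, 0.771 and 0.871 in inflamed hIECs and 0.586 and 0.577 in inflamed hIECs given PM10. Its groups did not overlap, and the fall with cytokines was -1.22 ± 0.09 without and -1.04 ± 0.09 with PM10 (limma adjusted p = 2.51e-05 and 3.91e-05). In normal hIECs the fall after PM10 was smaller (-0.38 ± 0.09, limma adjusted p = 0.041) and was lost in 13 of 18 alternative settings, where the adjusted p reached 0.175. Exons of ST7L lie over WNT2B on the other strand. WNT11 and WNT2B passed the filter only through libraries without cytokines, so their differences with cytokines are in part fixed by the filter.

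WNT5A (chr3:55465715-55490539), the main ligand of β-catenin-independent signaling, went the other way. Its level was 2.41 and 2.2 FPKM in normal hIECs, 2.83 and 2.56 after PM10, 3.89 and 3.52 in inflamed hIECs, and 7.83 and 8.43 in inflamed hIECs given PM10. The inflamed libraries with PM10 stood above all others, and the 2 inflamed libraries without PM10 stood above the 4 without cytokines. WNT5A rose with cytokines by 0.51 ± 0.08 without PM10 (limma adjusted p = 0.00136) and by 1.30 ± 0.08 with PM10 (limma adjusted p = 8.17e-06). It rose with PM10 in inflamed cells by 0.96 ± 0.08 (limma adjusted p = 0.000793), while in normal hIECs its change was 0.16 ± 0.08 and not called. The interaction was called (0.80 ± 0.11, limma adjusted p = 0.0109), and the call was lost without the second library of normal hIECs given PM10, of inflamed hIECs or of inflamed hIECs given PM10 (limma adjusted p up to 0.0521).

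WNT5B, the closest relative of WNT5A, was at 1.96 and 1.99 FPKM in normal hIECs, 0.794 and 0.989 after PM10, 1.17 and 1.10 in inflamed hIECs, and 1.63 and 1.09 in inflamed hIECs given PM10. The normal libraries were above the other 6, and the 2 inflamed libraries with PM10 were further apart than the libraries of any other group. PM10 lowered it in normal cells by -0.66 ± 0.12 (limma adjusted p = 0.0224) and cytokines without PM10 by -0.48 ± 0.12 (limma adjusted p = 0.0124). The first call was lost without either library of normal hIECs given PM10 and without the second normal library (limma adjusted p up to 0.124), and the second without the second library of normal or of inflamed hIECs (limma adjusted p up to 0.0576). The interaction (0.79 ± 0.17, limma adjusted p = 0.0412) was lost in 9 of 17 settings.

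The remaining ligands were low. WNT3 stayed between 0.575 and 0.952 FPKM in the 8 libraries, with 0.936 ± 0.022 (SD, n = 2) in normal hIECs and 0.596 ± 0.030 in those given cytokines and PM10. WNT6, WNT10A and WNT10B were each at 0 in at least 4 libraries and did not exceed 0.337 FPKM. Summed over all 19 ligands, the level was 22.8 and 20.3 FPKM in normal hIECs, 17.4 and 17.8 after PM10, 7.23 and 6.69 in inflamed hIECs, and 10.9 and 10.9 in inflamed hIECs given PM10. WNT5A made up 10.6% and 10.8% of this sum in normal hIECs, 16.3% and 14.4% with PM10, 53.7% and 52.7% in inflamed hIECs and 71.8% and 77.4% in inflamed hIECs given PM10. WNT4 and WNT11 together with WNT2B held most of it in the libraries without cytokines.

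**Figure D1:**
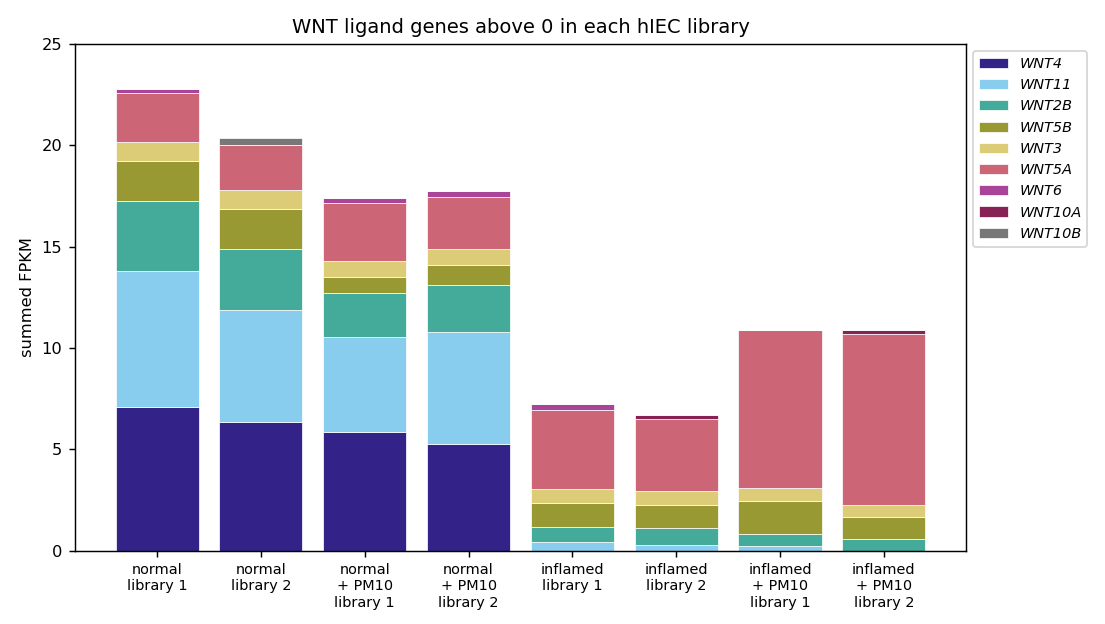
Stacked bars of the summed FPKM of the 9 WNT ligand genes above 0 in each of the 8 libraries, 1 color per gene. WNT4 and WNT11 are the largest segments of the bars without cytokines, and WNT5A is the largest segment in all 4 bars with cytokines, where it holds 52.7% to 77.4% of the sum.

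Of the ligand-binding antagonists, SFRP1, SFRP2 and WIF1 fell with cytokines and FRZB rose. SFRP2 (chr4:153780591-153789083), a secreted Frizzled-related protein, had the highest level of all 51 members in the 4 libraries without cytokines. It was at 276 and 282 FPKM in normal hIECs, 371 and 379 after PM10, 29.3 and 28.8 in inflamed hIECs, and 23.5 and 23.3 in inflamed hIECs given PM10. The 4 groups did not overlap, and PM10 moved it up without cytokines and down with them. The fall with cytokines was -3.22 ± 0.04 without PM10 (limma adjusted p = 5.30e-09) and -3.94 ± 0.04 with PM10 (limma adjusted p = 2.21e-09). PM10 changed SFRP2 by 0.42 ± 0.04 in normal hIECs (limma adjusted p = 0.00282) and by -0.30 ± 0.04 in inflamed hIECs (limma adjusted p = 0.00497). The interaction of -0.72 ± 0.06 (limma adjusted p = 0.00171) was called in all 17 settings tried.

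SFRP1, a close relative, was at 64.2 and 57.2 FPKM in normal hIECs, 61.5 and 60.5 after PM10, 25.5 and 24.1 in inflamed hIECs, and 25.7 and 25.7 in inflamed hIECs given PM10. Libraries with cytokines were below all libraries without them, by -1.26 ± 0.06 without and -1.21 ± 0.06 with PM10 (limma adjusted p = 4.35e-06 and 3.79e-06). PM10 gave 0.01 ± 0.06 in normal and 0.05 ± 0.06 in inflamed hIECs, and neither was called. WIF1, a secreted inhibitor that is not related to SFRP proteins, was at 8.17 and 6.54 FPKM in normal hIECs, 4.61 and 4.32 after PM10, 1.46 and 1.66 in inflamed hIECs, and 0.509 and 0.597 in inflamed hIECs given PM10. Its 4 groups were separate and stepped down in that order. WIF1 fell with cytokines by 1.70 and 1.81 on the log2 scale without and with PM10, and with PM10 by 0.61 in normal (limma adjusted p = 0.0195) and 0.72 in inflamed hIECs (limma adjusted p = 0.00641). It was the one member called in the same direction by PM10 in both states, and its interaction of -0.12 ± 0.15 was not called. The call in normal hIECs was lost without either library of normal hIECs given PM10 (limma adjusted p up to 0.134).

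FRZB, which is structurally an SFRP, was at 16.2 and 13.7 FPKM in normal hIECs, 14.5 and 13.5 after PM10, 20.5 ± 0.46 (SD, n = 2) in inflamed hIECs and 16.9 ± 0.59 in hIECs given both. It rose with cytokines by 0.44 ± 0.08 without PM10 (limma adjusted p = 0.00316) and by 0.26 ± 0.08 with PM10 (limma adjusted p = 0.0267), and the second call was lost when either library of inflamed hIECs given PM10, or the second of normal hIECs given PM10, was left out (limma adjusted p up to 0.135). SFRP4 stayed between 0.550 and 1.39 FPKM and was called higher with cytokines only where PM10 was present (0.29 ± 0.10, limma adjusted p = 0.0377), a call that was also lost with single libraries left out (limma adjusted p up to 0.172). Its change without PM10 was 0.27 ± 0.10 and missed the threshold. SFRP4 passed the filter only through libraries with cytokines, so these differences are in part fixed by the filter. The 6 antagonists summed to 365 and 360.4 FPKM in normal hIECs, 452 and 458 after PM10, 77.5 and 76.8 in inflamed hIECs, and 67.2 and 68.0 in inflamed hIECs given PM10. SFRP2 held 75.5% to 82.8% of this sum without cytokines and 34.3% to 37.7% with them.

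The Dickkopf genes parted. DKK1 (chr10:52314281-52318042), which blocks LRP5 and LRP6, was at 76.1 and 64.2 FPKM in normal hIECs, 38.7 and 37.3 after PM10, 30.2 and 26.6 in inflamed hIECs, and 24.7 and 24.5 in inflamed hIECs given PM10. Each treatment group lay below the normal libraries, and the groups did not overlap. DKK1 fell with cytokines by -1.27 ± 0.09 without PM10 (limma adjusted p = 2.32e-05) and by -0.61 ± 0.09 with PM10 (limma adjusted p = 0.000732). PM10 lowered it in normal cells by -0.86 ± 0.09 (limma adjusted p = 0.00332), and in inflamed hIECs the change of -0.20 ± 0.09 was not called. The interaction was 0.66 ± 0.13 (limma adjusted p = 0.0287), and leaving out any single library other than the normal ones ended that call (limma adjusted p up to 0.0995). PRKG1-AS1 overlaps DKK1 on the other strand.

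DKK2, which also binds LRP6, was at 10.2 and 8.76 FPKM in normal hIECs, 8.92 and 9.04 after PM10, 5.46 and 4.89 in inflamed hIECs, and 3.48 and 3.28 in inflamed hIECs given PM10. The groups without cytokines overlapped, and the inflamed groups were below them and apart from each other. It fell with cytokines by -0.76 ± 0.08 without and -1.19 ± 0.08 with PM10, and with PM10 in inflamed hIECs by -0.50 ± 0.08 (limma adjusted p = 0.0105). This last call was lost without the first inflamed library or either inflamed library with PM10 (limma adjusted p up to 0.0723). DKK3 (chr11:11956207-12009769), a divergent member that is not known as an LRP inhibitor of the DKK1 kind, moved against both with cytokines and together with DKK1 with PM10 in normal hIECs. It was at 42.7 and 37.8 FPKM in normal hIECs, 27.3 and 26.6 after PM10, 68.3 and 70.9 in inflamed hIECs, and 107 and 105 in inflamed hIECs given PM10.

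In DKK3 all 4 groups were separate, with PM10 below its control in normal hIECs and above it in inflamed hIECs. The rise with cytokines was 0.78 ± 0.06 without PM10 (limma adjusted p = 4.28e-05) and 1.93 ± 0.06 with PM10 (limma adjusted p = 3.48e-07). PM10 changed DKK3 by -0.56 ± 0.06 in normal hIECs (limma adjusted p = 0.00424) and by 0.60 ± 0.06 in inflamed hIECs (limma adjusted p = 0.00161). Its interaction of 1.16 ± 0.09 (limma adjusted p = 0.00165) was the only one of the 8 above 1 in size, where 0.88% of all genes were called and passed 1, and it was called in all 17 settings. Exons of USP47 lie over DKK3 on the other strand. DKK4 was above 0 in 2 libraries, at 0.270 and 0.224 FPKM. DKK1 made up 58.9% and 57.9% of the Dickkopf sum in normal hIECs and 18.3% and 18.5% in inflamed hIECs given PM10, where DKK3 held 79.1% and 79.1%.

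**Figure D2:**
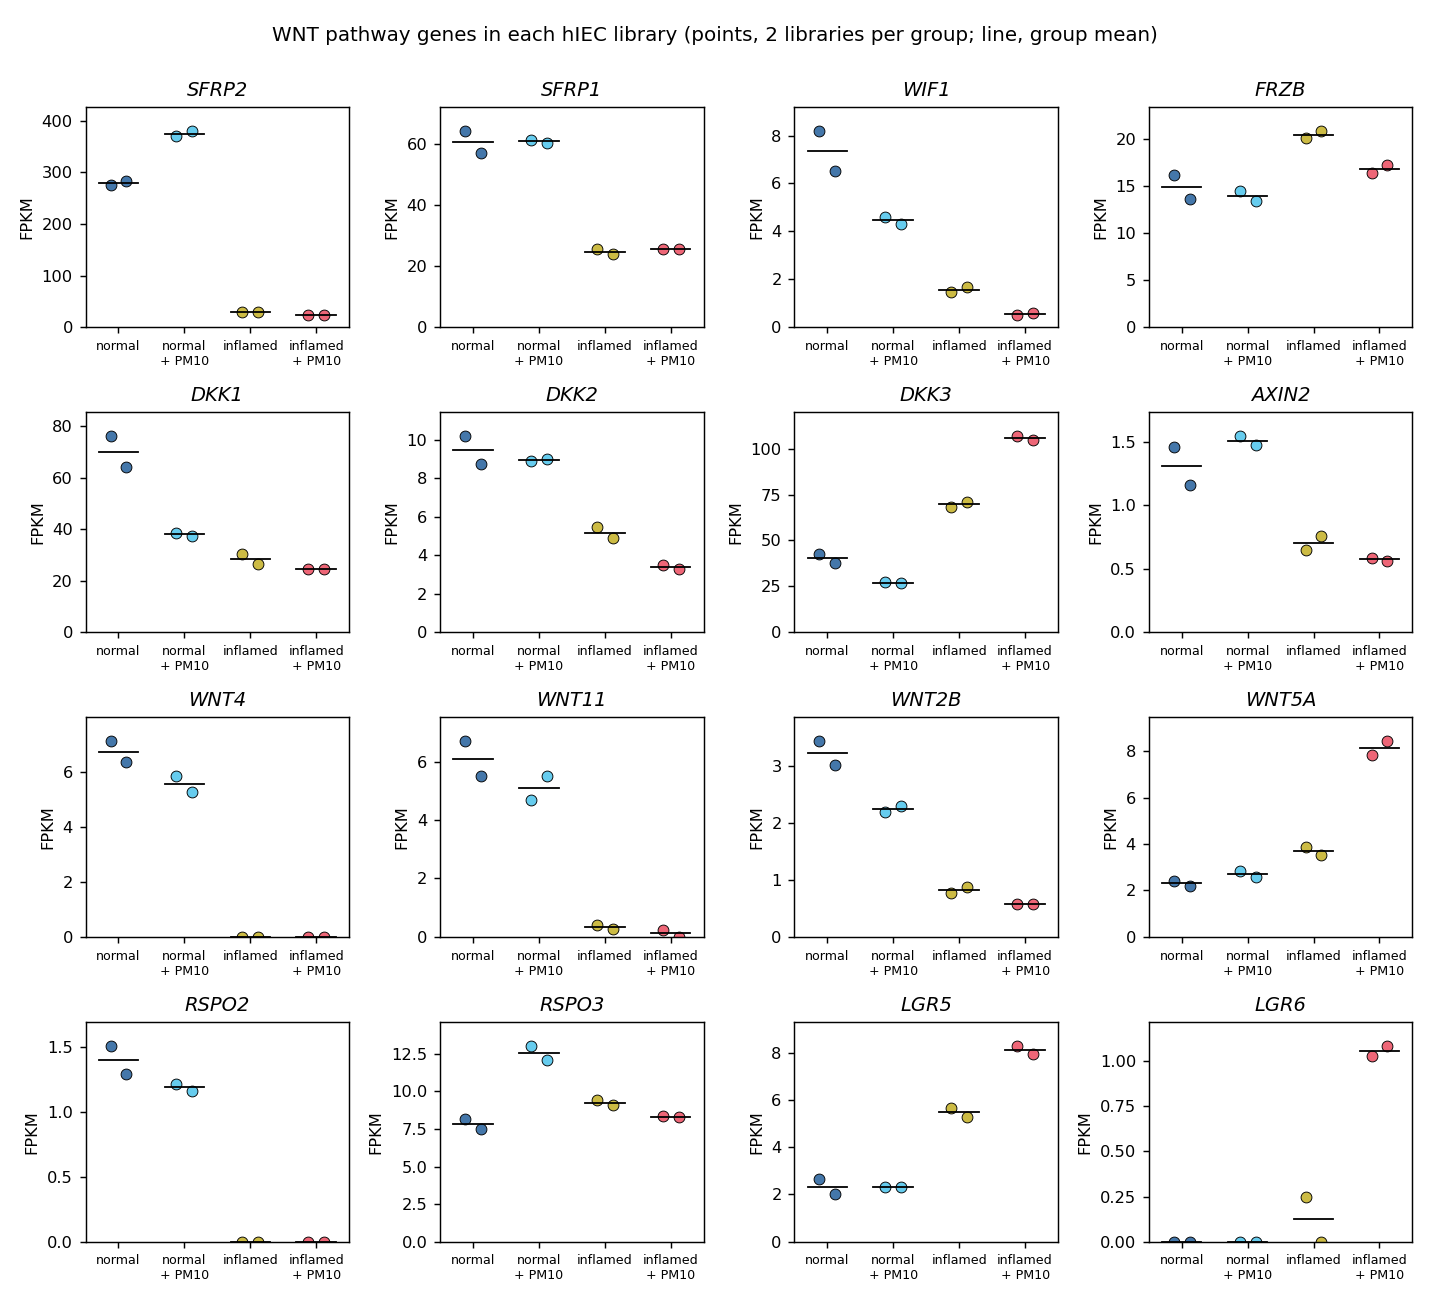
FPKM of 16 WNT pathway genes, 1 panel per gene with its own axis from 0, points for the 2 libraries of each of the 4 groups and a line at the group mean. SFRP2, SFRP1, WIF1, WNT4, WNT11 and WNT2B are low in both inflamed groups, while DKK3, WNT5A, LGR5 and LGR6 are highest in inflamed hIECs given PM10.

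The Frizzled receptors moved little. Of 10 genes, 7 were tested, FZD10 was at 0, FZD5 stayed at 0.226 to 0.366 FPKM, and FZD9 was at 0.427 to 0.628 FPKM without cytokines and at 0 to 0.283 with them. The summed Frizzled level was 103 to 123 FPKM in all 8 libraries, of which FZD7, FZD2 and FZD8 held the most. FZD2 was at 31.2 ± 1.8 FPKM (SD, n = 2) in normal hIECs and 33.4 to 35.6 in the other group means, and it was called in no comparison. FZD7 was at 41.2 ± 2.2 FPKM in normal hIECs, 39.8 ± 0.78 after PM10, 45.7 ± 0.76 in inflamed hIECs and 32.2 ± 1.2 in hIECs given both. PM10 thus lowered FZD7 in inflamed hIECs (-0.49 ± 0.06, limma adjusted p = 0.00217) and gave -0.05 ± 0.06 in normal hIECs, with an interaction of -0.44 ± 0.08 (limma adjusted p = 0.0233) that was lost when any library other than the normal ones was left out (limma adjusted p up to 0.0922).

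FZD6, which is known for planar polarity, was at 3.90 and 2.74 FPKM in normal hIECs, 2.99 and 2.43 after PM10, 4.64 and 4.82 in inflamed hIECs, and 4.84 and 4.84 in inflamed hIECs given PM10. Libraries with cytokines were above those without, by 0.42 ± 0.13 without PM10 (limma adjusted p = 0.028) and 0.66 ± 0.13 with PM10 (limma adjusted p = 0.00329). The first call was lost with only these 2 groups in the fit and without the second normal or either inflamed library (limma adjusted p up to 0.118). BAALC-AS1 overlaps FZD6 on the other strand. FZD8 was at 22.7 ± 1.7 FPKM in normal and 27.7 ± 0.62 in inflamed hIECs and was called higher with cytokines (0.28 ± 0.06, limma adjusted p = 0.00647), while its call where PM10 was present (0.17 ± 0.06, limma adjusted p = 0.0441) was lost in 9 of 18 settings. FZD1 (3.52 ± 0.064 to 4.38 ± 0.13 FPKM) and FZD3 (0.783 ± 0.024 to 1.20 ± 0.0061) were called higher without PM10 present and not with it, and both calls were lost without the second inflamed library (limma adjusted p up to 0.0715). FZD4 (3.87 ± 0.28 FPKM in normal, 3.72 ± 0.25 with PM10, 3.40 ± 0.14 in inflamed, 3.02 ± 0.13 in inflamed with PM10) was called lower only with PM10 present (-0.23 ± 0.08, limma adjusted p = 0.0334), and that call was lost under median centring, under quantile normalization and without 3 of the 4 libraries given PM10 (limma adjusted p up to 0.169). No Frizzled gene was called with PM10 in normal hIECs by limma.

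Both LRP co-receptors were lower with cytokines. LRP6 was at 5.29 and 4.53 FPKM in normal hIECs, 7.34 and 7.28 after PM10, 3.84 and 3.94 in inflamed hIECs, and 4.44 and 4.24 in inflamed hIECs given PM10. The normal libraries with PM10 stood highest and the inflamed libraries lowest. The changes were -0.27 ± 0.08 with cytokines alone (limma adjusted p = 0.0198), -0.64 ± 0.08 with cytokines where PM10 was present (limma adjusted p = 0.000254) and 0.50 ± 0.08 with PM10 in normal hIECs (limma adjusted p = 0.0131). The first was lost with only these 2 groups in the fit and without the first normal or either inflamed library (limma adjusted p up to 0.0889), and the last without either library of normal hIECs given PM10 (limma adjusted p up to 0.130). LRP5, its paralog, was at 9.99 ± 0.045 FPKM (SD, n = 2) in normal hIECs, 10.6 ± 0.031 after PM10, 7.18 ± 0.20 in inflamed hIECs and 8.17 ± 0.13 in hIECs given both. It fell with cytokines by 0.43 and 0.34 on the log2 scale (limma adjusted p = 0.000412 and 0.00102) and was not called with PM10.

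R-spondins amplify WNT signals, and the medium used before the one with Wnt-C59 held R-spondin1 protein, while the RSPO1 gene itself was at 0 in all libraries. RSPO2 was at 1.51 and 1.29 FPKM in normal hIECs, 1.22 and 1.17 after PM10, and at 0 in all 4 libraries with cytokines. It was called lower in both cytokine comparisons (limma adjusted p = 3.53e-05 and 4.36e-05), with no fold given. RSPO2 passed the filter only through libraries without cytokines, so these p-values are in part fixed by the filter. RSPO3 was at 8.13 and 7.48 FPKM in normal hIECs, 13.01 and 12.1 after PM10, 9.43 and 9.06 in inflamed hIECs, and 8.35 and 8.26 in inflamed hIECs given PM10. The normal libraries with PM10 were the highest, and the other 6 lay between 7.48 and 9.43. RSPO3 rose with PM10 in normal cells by 0.62 ± 0.06 (limma adjusted p = 0.00332), changed by -0.14 ± 0.06 in inflamed hIECs and had an interaction of -0.76 ± 0.09 (limma adjusted p = 0.00619), called in all 17 settings. It was also the one member called in opposite directions by cytokines, 0.22 ± 0.06 without PM10 (limma adjusted p = 0.0229) and -0.54 ± 0.06 with PM10 (limma adjusted p = 0.000246), and the first of these was lost with only its 2 groups in the fit and without the second normal or either inflamed library (limma adjusted p up to 0.114). RSPO4 stayed at 0.411 to 0.982 FPKM and was not tested.

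The LGR receptors changed in opposite directions. LGR4, the most widely expressed of them, was at 32.3 and 25.8 FPKM in normal hIECs, 37.8 and 37.2 after PM10, 21.0 and 20.9 in inflamed hIECs, and 24.2 and 23.5 in inflamed hIECs given PM10. All libraries with cytokines were below all without, by -0.44 ± 0.09 without PM10 (limma adjusted p = 0.00529) and -0.63 ± 0.09 with PM10 (limma adjusted p = 0.000743). LGR4-AS1 overlaps it on the other strand. LGR5 (chr12:71439798-71586310), the receptor that marks intestinal stem cells, was at 2.63 and 2.01 FPKM in normal hIECs, 2.33 and 2.31 after PM10, 5.68 and 5.26 in inflamed hIECs, and 8.28 and 7.92 in inflamed hIECs given PM10. The inflamed groups were above the others and apart from each other, while the groups without cytokines overlapped. LGR5 rose with cytokines by 0.97 ± 0.10 without PM10 (limma adjusted p = 0.00013) and 1.45 ± 0.10 with PM10 (limma adjusted p = 1.16e-05). PM10 raised it in inflamed hIECs by 0.49 ± 0.10 (limma adjusted p = 0.0172), a call lost when any library of the 2 inflamed groups was left out (limma adjusted p up to 0.102), and the interaction missed the threshold (0.49 ± 0.14, limma adjusted p = 0.084). CDX2, VIL1 and MUC2 were at 0 in all libraries beside it, and an unnamed gene overlaps LGR5 on the other strand.

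LGR6 was at 0 in the 4 libraries without cytokines, at 0.246 and 0 FPKM in inflamed hIECs and at 1.03 and 1.08 in inflamed hIECs given PM10. The level above 1 FPKM was thus seen in the group that also let the gene pass the filter. LGR6 is counted among the calls with PM10 in inflamed hIECs, with cytokines where PM10 was present and in the interaction, but its p-values are in part fixed by the filter and are not given as support.

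The feedback genes are induced by β-catenin and restrain the pathway. AXIN2, the most widely used readout of it, was at 1.46 and 1.16 FPKM in normal hIECs, 1.55 and 1.48 after PM10, 0.650 and 0.756 in inflamed hIECs, and 0.586 and 0.565 in inflamed hIECs given PM10. All libraries with cytokines were below all without, by -0.44 ± 0.10 without PM10 (limma adjusted p = 0.00729) and -0.67 ± 0.10 with PM10 (limma adjusted p = 0.000705), and both calls held in all 18 settings. AXIN2 reached 1 FPKM only in libraries without cytokines, so its differences with cytokines are in part fixed by the filter. PM10 was called for AXIN2 in neither state. ZNRF3, at 1.02 and 0.962 FPKM in normal hIECs, 1.12 and 0.921 after PM10, 1.01 and 0.976 in inflamed hIECs and 1.19 and 1.13 in inflamed hIECs given PM10, was called in no comparison. RNF43 was at 0.355 and 0.389 FPKM in normal hIECs, 0.536 and 0.489 after PM10, 0.581 and 0.570 in inflamed hIECs, and 0.597 and 1.02 in inflamed hIECs given PM10, and was too low to be tested. Its 4 libraries with cytokines lay above the 4 without, in the direction opposite to AXIN2. Exons of other genes lie over AXIN2 on the same strand and over RNF43 on both strands.

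The cytokine comparisons without and with PM10 share no library. Of the 29 members, 20 were called in both, 19 in the same direction and RSPO3 in opposite directions. The 19 include AXIN2, RSPO2, WNT2B, WNT4 and WNT11, whose differences with cytokines are in part fixed by the filter. FZD1, FZD3 and WNT5B were called without PM10 alone, FZD4, FZD7, LGR6 and SFRP4 with PM10 alone, and FZD2 and ZNRF3 in neither. Of all 14206 genes, 48.8% were called in both, 48.3% in the same direction and 0.528% in opposite directions, 7.41% without PM10 alone, 16.5% with PM10 alone and 27.2% in neither. Of the 7 members called on one side alone, WNT5B and FZD7 also had a called interaction, lost in 9 and 6 of 17 settings, and that of LGR6 is in part fixed by the filter.

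**Figure D3:**
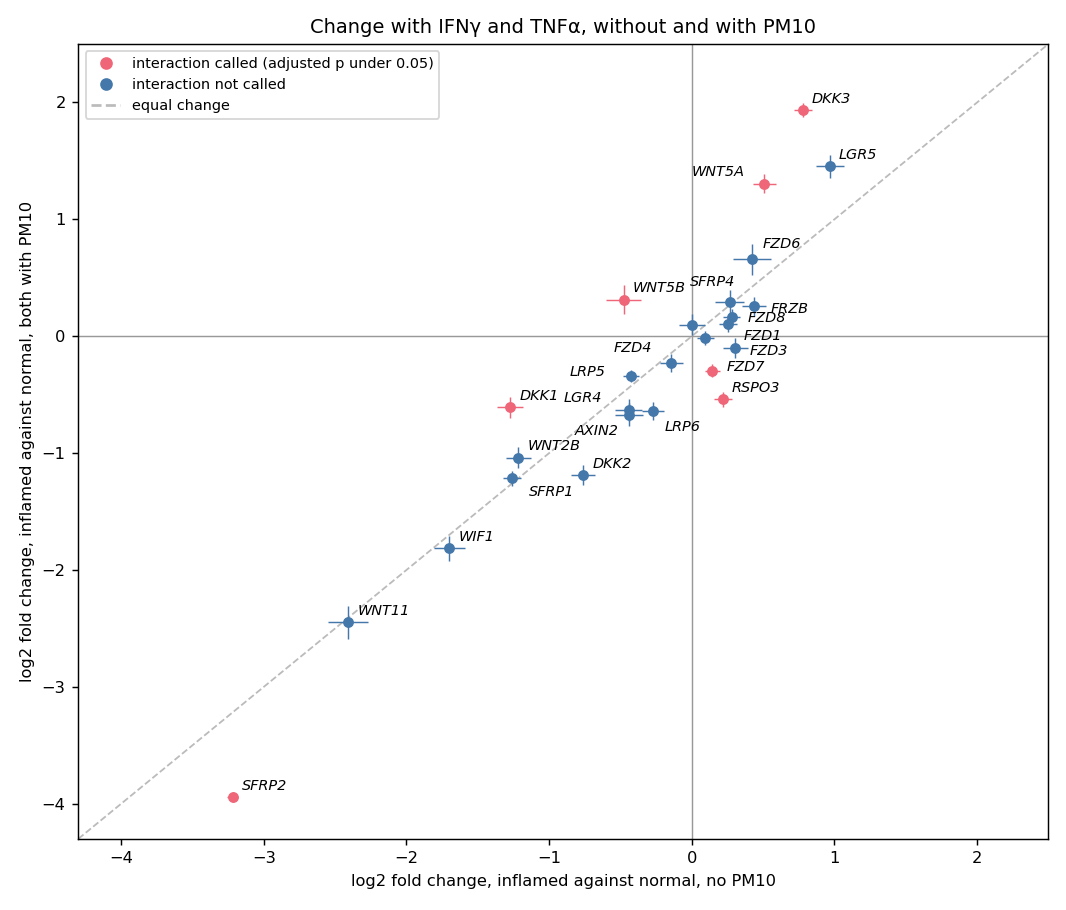
Log2 fold change with IFNγ and TNFα for 26 tested members, without PM10 (horizontal axis) and with PM10 in both groups (vertical axis), with bars for the standard error and a dashed line of equal change. WNT4, RSPO2 and LGR6 are left out because a group was listed at 0. SFRP2 lies at -3.22 and -3.94, and DKK3 and WNT5A lie above the line.

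The PM10 comparisons in normal and inflamed hIECs share no library either. Of the 29 members, 3 were called in both, WIF1 in the same direction and DKK3 and SFRP2 in opposite directions. In normal hIECs alone DKK1, LRP6, RSPO3, WNT2B and WNT5B were called, in inflamed hIECs alone DKK2, FZD7, LGR5, LGR6 and WNT5A, and 16 members in neither. Of all genes, 3.05% were called in both, 2.48% in the same direction and 0.563% in opposite directions, 6.18% in normal hIECs alone, 12.2% in inflamed hIECs alone and 78.6% in neither. When limma was fitted to the 4 libraries without cytokines alone, the 8 calls in normal hIECs were lost. Of all 14206 genes, 23 were called in place of 1311. An unadjusted p under 0.05 was found for 11 of the 29 members and for 3169 of all genes.

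**Figure D4:**
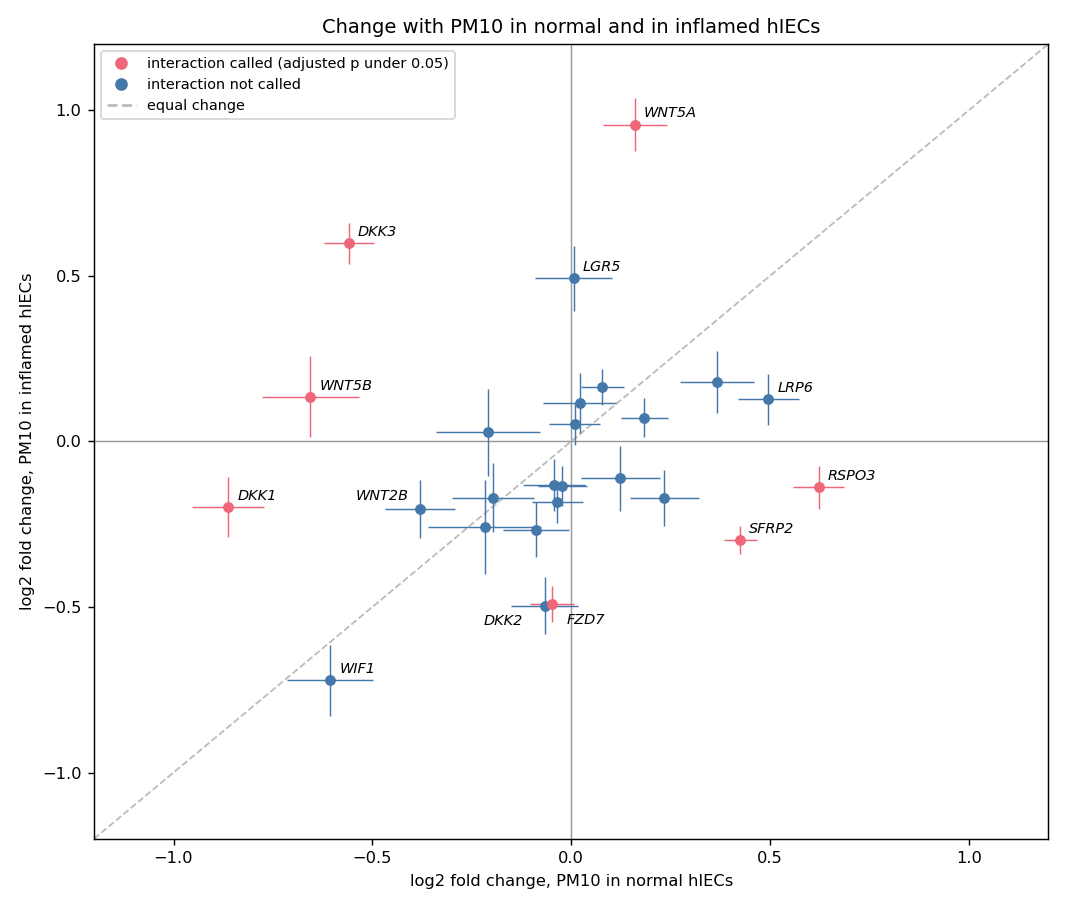
Log2 fold change with PM10 for 26 tested members in normal hIECs (horizontal axis) and inflamed hIECs (vertical axis), with bars for the standard error, a dashed line of equal change and red for a called interaction. WNT4, RSPO2 and LGR6 are left out because a group was listed at 0. DKK3 and SFRP2 sit in the quadrants of opposite change.

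Other genes of the pathway, from hand-written lists, moved in both directions with cytokines. In inflamed against normal hIECs, 9 of 10 tested WNT secretion and processing genes were called, 3 higher and 6 lower, beside 25.9% higher and 30.3% lower over all genes. TRABD2B, a protease that inactivates WNT proteins, was at 6.72 and 6.74 FPKM in normal and 0.922 and 1.04 in inflamed hIECs (-1.97 ± 0.07), while its relative TRABD2A changed by 1.29 ± 0.17. TRABD2A reached 1 FPKM only in libraries with cytokines, so its difference is in part fixed by the filter. The glypican GPC3 changed by -1.78 ± 0.07 and the heparan sulfatase SULF2 by -1.50 ± 0.07. PORCN, the target of Wnt-C59, was at 3.79 to 4.87 FPKM in the 8 libraries and was not called with cytokines (-0.20 ± 0.09, limma adjusted p = 0.107). Of 16 tested co-receptor and planar polarity genes, 4 were called higher and 5 lower, a share near the 56.2% of all genes. On the log2 scale PRICKLE2 was at 0.68, VANGL1 at 0.66, TSPAN12 at -0.56 and DKKL1 at -1.58. DKKL1 reached 1 FPKM only in libraries without cytokines, so its difference is in part fixed by the filter.

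Of 33 tested cytoplasmic and nuclear pathway genes, 7 were called higher and 14 lower, with a median of -0.06, again beside 56.2% of all genes. The largest falls were those of DACT2 (-2.36 ± 0.09), a scaffold that binds Dishevelled, and of the co-repressors TLE2 (-1.79 ± 0.07) and TLE1 (-0.92 ± 0.08), while TLE4 rose by 0.91 ± 0.07. Of 14 tested genes known as WNT targets in intestine or elsewhere, 4 were called higher and 8 lower, with a median of -0.37 beside -0.03 over all genes. SMOC2, an intestinal stem cell gene, was at 33.9 and 31.0 FPKM in normal and 3.04 and 2.68 in inflamed hIECs (-3.11 ± 0.07), and SOX9 changed by -1.63 ± 0.07. TNFRSF11B and CD44, which cytokines also regulate, rose by 2.44 ± 0.12 and 1.74 ± 0.13. LEF1 and TCF7 are counted in both of these lists. With PM10 in normal hIECs the 4 lists had 8 calls in all by limma, 6 higher and 2 lower, near the 9.23% of all genes and from the fit to all 8 libraries, which called 1311 genes where the fit to the 4 libraries without cytokines called 23.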

How the data were processed

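Poly-A RNA of 8 libraries, 2 for each of 4 groups, was sequenced without strand information as 2 × 100 bases. Per the labels and the study's methods, the authors removed adapters with Cutadapt 3.7, trimmed with Sickle 1.33 at a Phred score of 20, kept reads of at least 50 bases, used HISAT2 2.2.1 for alignment to GRCh38 and took FPKM from StringTie 2.2.0. The FPKM values deposited by the authors, 1 per gene and library, hold no read counts, so depth is unknown and no count test was run. The annotation release is not given in the sources used here. Positions and overlaps come from GENCODE release 44, in which all 51 member identifiers were found. Exons of another gene share positions with 12 tested members (AXIN2, DKK1, DKK3, FZD4, FZD6, FZD8, LGR4, LGR5, RSPO3, WNT2B, WNT4 and WNT11).

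Values were compared as log2(FPKM + 1) with limma 3.58.1 (R 4.3.3), with a variance trend, on 14206 genes that reached 1 FPKM in 2 or more libraries, with all 8 libraries in 1 fit. Benjamini-Hochberg adjustment was made separately for the 5 comparisons, and the scripts were tested on simulated data. Every tested member is named. All library values are given for members called with a change of at least 0.5 on the log2 scale and for AXIN2, LGR5, RNF43 and ZNRF3, and up to 4 genes of each other list are named by the size of their change with cytokines. PORCN was named after its values were seen. Although the rule for members uses symbols alone, members and lists were chosen with earlier results of these data known. Alternatives covered the pseudocount, filters, scaling, mitochondrial genes, the variance trend, the groups in the fit, a replicate block and leaving out single libraries. Promoter sequences are from RefSeq, and figures were drawn with Python 3.11.15 and matplotlib 3.10.9.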

Additional observations from a re-analysis of the deposited data

Results flagged for a closer look

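For 8 of the 29 tested members the effect of PM10 differed between inflamed and normal hIECs by the interaction term in limma, where 6.6% of all tested genes were called. The log2 differences (PM10 effect in inflamed minus that in normal hIECs) were 1.16 for DKK3, 0.80 for WNT5A, 0.79 for WNT5B and 0.66 for DKK1 in the upward direction. They were -0.76 for RSPO3, -0.72 for SFRP2 and -0.44 for FZD7 in the downward direction. For LGR6 the term was 0.88, but the gene passed the filter only through inflamed hIECs given PM10 and both groups without cytokines were listed at 0, so it is in part fixed by the filter, its size depends on the pseudocount, and the call was lost in 10 of 16 settings (limma adjusted p up to 0.141).

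DKK3 and SFRP2 were called with PM10 in opposite directions in the 2 states. DKK1, RSPO3 and WNT5B were called with PM10 in normal hIECs alone, and FZD7, LGR6 and WNT5A in inflamed hIECs alone. The calls for DKK3, RSPO3 and SFRP2 held in every setting tried, and those for the other 5 were lost in at least 3 settings each.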

How the results depend on the processing

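None of the 29 tested members was called in the opposite direction under any setting tried. Of the calls made, 17 of 23 with cytokines without PM10, 20 of 24 with cytokines and PM10, 6 of 8 with PM10 in inflamed hIECs, 3 of 8 interactions and 0 of 8 with PM10 in normal hIECs were kept in every setting. With only the 2 groups compared in the limma fit, PM10 in normal hIECs gave 0 called members and PM10 in inflamed hIECs gave 10. The cytokine comparisons gave 20 without and 24 with PM10. Of all 14206 genes, these fits called 23 and 2108 with PM10, and 7008 and 9575 with cytokines. For PM10 in normal hIECs, an unadjusted p under 0.05 was found for 11 members and for 3169 of all genes. The median SD of log2 values was 0.085 in normal hIECs and 0.049 to 0.053 in the other groups, and the cause of the loss was not tested. That fit could not be made for the interaction. Leaving out 1 library at a time, where the lone library of a group is assumed to vary like the others, gave 4 to 8 members for PM10 in normal hIECs (4 without either library of normal hIECs given PM10), 17 to 23 and 20 to 24 for the cytokine comparisons, 6 to 10 for PM10 in inflamed hIECs, and 3 to 9 for the interaction. Without any library of the 2 inflamed groups, the interaction likewise had fewer calls among the members and among all genes. With the replicate number as a block, 7, 23, 22, 8 and 6 members were called in the 5 comparisons (PM10 in normal hIECs, cytokines without and with PM10, PM10 in inflamed hIECs, interaction), against 8, 23, 24, 8 and 8. Of all genes, 1051, 7957, 9264, 1966 and 762 were called with the block, against 1311, 7988, 9286, 2165 and 937. Deviations of same-numbered libraries correlated at -0.0015 to 0.079 between groups. With 2 libraries per group, these low values cannot exclude that same-numbered libraries share a culture or batch. The files give no depth, 13 members were at 0 in all libraries, and the lowest values listed above 0 for any gene were 0.164 to 0.228 FPKM. The level below which a given member would be listed at 0 is not known.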
